A study of Rattus norvegicus with 4 samples.

Results

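The RUNX, osterix and MEF2 transcription factors of chondrocyte hypertrophy were followed by 7 genes, Runx1, Runx2, Runx3, Cbfb, Sp7, Mef2a and Mef2d, taken by symbol from a count table of 13554 genes. Each symbol matched 1 row, and all 7 passed the filter on low counts, which left 11202 genes tested. RNA had been sequenced from articular cartilage, the layer that covers bone ends in joints, and from xiphoid cartilage, the tip of the sternum, with 2 libraries each. All libraries came from Sprague-Dawley rats aged 8 to 10 weeks with no treatment or genetic change in the labels. The labels name neither the joint nor the animals or pools behind each library, so p-values measure the variation among these 4 libraries alone, and that may be technical.

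RUNX proteins bind DNA through a shared Runt domain and do so more tightly as heterodimers with CBFB, the product of Cbfb, which does not itself bind DNA. In mice, RUNX2 with RUNX3 drives chondrocytes into hypertrophy, the enlargement that precedes replacement of cartilage by bone, and RUNX2 and the zinc finger factor SP7 (osterix) are required for osteoblasts to form. MEF2 factors, MADS-box proteins first known from muscle, also promote hypertrophy in mice and are held back by class IIa histone deacetylases such as HDAC4. RUNX1 is best known from blood stem cells and RUNX3 from T cells and sensory neurons.

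Of the 7 genes, 6 were higher in articular cartilage with a Benjamini-Hochberg adjusted p below 0.05 in edgeR's quasi-likelihood test, and Runx1 did not pass. In the same test 25% of all genes tested were higher in articular cartilage, 24.5% were lower, and the median log2 fold change was -0.02. The changes covered a wide span, from 71.0-fold for Runx3 and 44.0-fold for Sp7 to 1.39-fold for Mef2d. Runx3, with 6 and 16 xiphoid counts, and Sp7, with 11 and 9, reached the filter on low counts through the articular libraries. The libraries of the tissues did not overlap for these 6 genes, as for 74.9% of all genes tested, and overlapped for Runx1. Levels are given as CPM, counts scaled to library size with TMM factors, and log2 fold changes are articular over xiphoid. Transcript lengths were not used, so the levels of different genes are not ranked against each other.

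**Figure D1:**
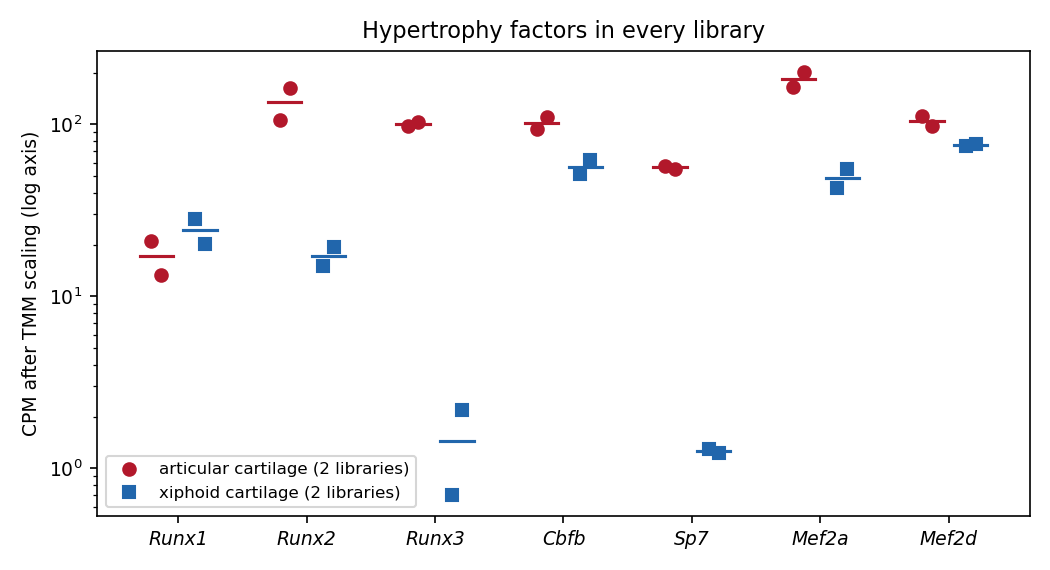
CPM on a log axis for each of the 7 genes, with red circles for the 2 articular libraries, blue squares for the 2 xiphoid libraries and bars for their means. Runx3 and Sp7 lie at 55.1 CPM or more in articular cartilage and at 0.706 to 2.19 CPM in xiphoid cartilage, while the Runx1 libraries overlap.

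The libraries held between 7351006 and 8434820 counts. Of 8 chondrocyte markers all were tested, 5 were higher and 1 lower in articular cartilage, and Sox9 and Matn3 did not pass. The 8 markers summed to 123299 and 105490 CPM in the articular libraries, against 28730 and 27115 CPM in the xiphoid libraries. Col2a1 made up most of these sums, at 103394 and 85673 CPM in articular and 16347 and 14862 CPM in xiphoid cartilage. Markers of other cells moved with the tissue as well. Of the osteoblast and osteocyte markers 5 of 7 tested were higher in articular cartilage and 0 lower, with sums of 9423 and 9766 CPM in articular cartilage and 9601 and 9934 CPM in xiphoid cartilage that were mostly Col1a1 and Col1a2, which did not pass. Phex and Sost, genes of osteocytes, had no count in either xiphoid library. All 5 tested osteoclast markers were higher in articular cartilage, with sums of 1924 and 2012 CPM against 151 and 142 CPM in xiphoid cartilage. So were all 6 tested erythroid markers (184 and 175 CPM in articular cartilage, against 6.70 and 6.58 CPM in xiphoid cartilage), 5 of 6 neutrophil markers (180 and 183 CPM against 10.6 and 12.7 CPM) and all 4 tested B cell markers (29.1 and 23.4 CPM against 0.118 and 0 CPM). T and NK cell markers summed to 10.9 and 13.6 CPM in articular cartilage and 2.35 and 2.74 CPM in xiphoid cartilage with 1 of 2 tested higher, and 2 of 6 macrophage markers were higher. Neither megakaryocyte marker in the table was tested. All 8 skeletal muscle markers were lower in articular cartilage (34.2 and 24.9 CPM against 8213 and 8373 CPM), as were all 5 adipocyte markers (53.4 and 50.2 CPM against 1536 and 1386 CPM) and 4 of 5 fibroblast and perichondrium markers (460 and 445 CPM against 14425 and 13196 CPM). Gsn made up most of the fibroblast and perichondrium sums in both tissues. Of 6 endothelial markers 1 was higher and 2 lower. The part of these cell types in the results below was not tested, and in bulk tissue fewer cells of a type and less RNA per cell cannot be told apart.

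Runx2 (Entrez gene 367218), the gene of the main RUNX factor of hypertrophy and bone, was at 106 and 164 CPM in the articular libraries, against 14.9 and 19.3 CPM in the xiphoid libraries. Its lowest articular value was several times its highest xiphoid value, and articular replicate 2 stood above articular replicate 1. The mean was 135 ± 40.9 CPM in articular cartilage and 17.1 ± 3.10 CPM in xiphoid cartilage (SD, n = 2), 7.87-fold more in articular cartilage (log2 fold change 2.98, SE 0.23, 95% interval 2.48 to 3.48, adjusted p = 6.18e-07). The size of this change exceeded that of 93% of the genes tested. The Runx2 row pooled 2 annotated and 4 assembled transcripts, so the forms that start at its distal and proximal promoters were not separated. In the RefSeq annotation of GRCr8 the gene overlaps Supt3h, and the sources used here do not give whether counting used strand.

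Runx3 (Entrez gene 156726) showed the widest gap of the family. It was at 98.2 and 103 CPM in the articular libraries, from 821 and 800 counts, and at 0.706 and 2.19 CPM in the xiphoid libraries, from 6 and 16 counts. Runx3 was thus steady between the articular libraries and close to the detection limit in xiphoid cartilage. The mean was 100 ± 3.21 CPM in articular cartilage and 1.45 ± 1.05 CPM in xiphoid cartilage, a log2 fold change of 6.15 (SE 0.30, 95% interval 5.49 to 6.81, adjusted p = 1.06e-08). Its fold of 71.0 depended on the few xiphoid counts, at 45.8 without xiphoid replicate 1 and 141 without xiphoid replicate 2. Of the 8 T and NK cell markers, 6 did not reach the filter on low counts, and Cd3e, Cd8a, Prf1 and Nkg7 had no xiphoid count. Nkg7, a granule protein gene of these cells, had 28 counts in each articular library and was higher in articular cartilage (adjusted p = 0.00016). It reached the filter through the articular libraries alone. Lck, the other tested marker of these cells, did not pass (adjusted p = 0.094). It was at 4.55 and 3.72 CPM in articular cartilage and 1.88 and 2.60 CPM in xiphoid cartilage.

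Runx1 (Entrez gene 50662), the RUNX gene of blood stem cells, was the member that did not pass. It was at 21.1 and 13.2 CPM in articular cartilage and 28.2 and 20.1 CPM in xiphoid cartilage. The higher articular library lay between the xiphoid libraries. The fitted log2 fold change was -0.50 (SE 0.25, 95% interval -1.05 to 0.06, adjusted p = 0.124), so the interval runs from a fall in articular cartilage to about no difference and does not show that the tissues were alike. Without articular replicate 1 the log2 fold change was -0.87 and passed (adjusted p = 0.00154).

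Cbfb (Entrez gene 361391), the shared partner of all RUNX proteins, was at 94.5 and 110 CPM in articular cartilage and 51.3 and 61.8 CPM in xiphoid cartilage. The groups did not overlap, and the gap was small beside those of Runx2 and Runx3. Its mean was 102 ± 11.1 CPM in articular cartilage and 56.5 ± 7.44 CPM in xiphoid cartilage, 1.81-fold more in articular cartilage (log2 fold change 0.86, SE 0.16, 95% interval 0.50 to 1.22, adjusted p = 0.000978). Of all genes tested 64.2% had a smaller change.

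**Figure D2:**
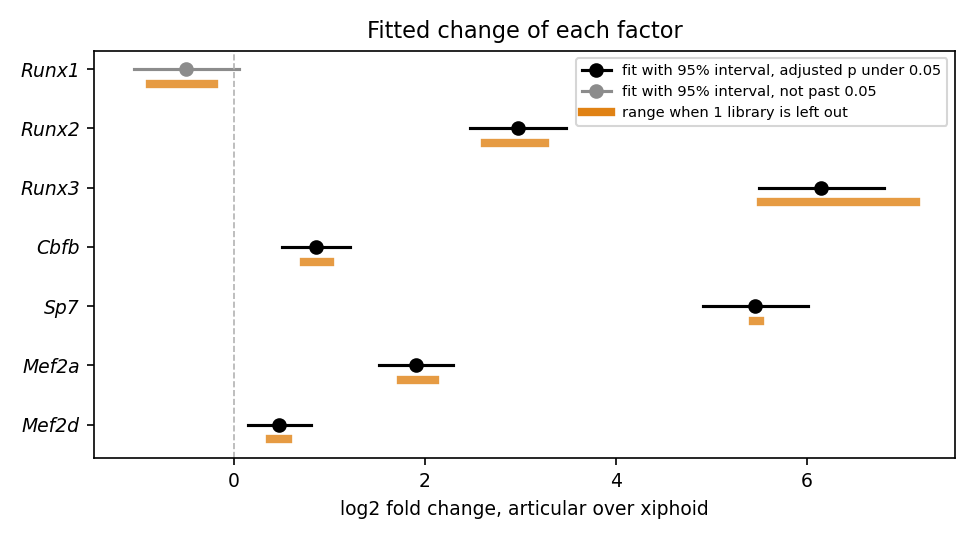
Log2 fold change of articular over xiphoid cartilage for each gene, with its 95% interval as a thin line (grey where the adjusted p was not under 0.05) and an orange bar for the range of values when 1 library was left out. Runx3, at 6.15, and Sp7, at 5.46, lie farthest to the right, and the interval of Runx1 crosses 0.

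Within a library the ratio of a gene pair is not moved by scaling. The ratio of Runx2 to Runx1 CPM was 5.02 and 12.4 in the articular libraries, against 0.529 and 0.959 in the xiphoid libraries. The ratio of Runx3 to Runx1 was 4.66 and 7.77 in articular and 0.025 and 0.109 in xiphoid cartilage. The makeup of the RUNX counts was thus not the same in the libraries of both tissues. Runx1 made up 9.36% and 4.73% of all RUNX counts in the articular libraries, against 64.3% and 48.4% in the xiphoid libraries, shares that are weighted by transcript length but compare the same genes across libraries. Runx3 made up 43.7% and 36.8% in articular and 1.61% and 5.26% in xiphoid cartilage. The summed RUNX CPM stood to that of Cbfb as 2.38 and 2.54 in articular and as 0.856 and 0.674 in xiphoid cartilage. The articular libraries were above the xiphoid libraries in each of the 6 ratios computed. In each, the gene or sum with the larger articular over xiphoid fold stood on top, so the shared direction follows from that order. No test was run on the ratios, since 2 libraries against 2 cannot give an exact 2-sided p below 0.333.

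**Figure D3:**
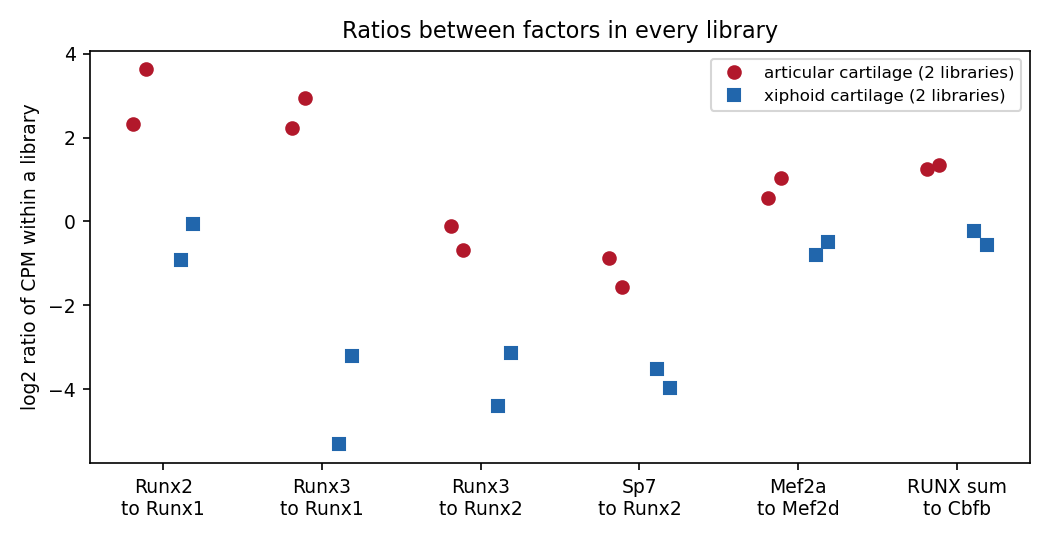
Log2 of the ratio of CPM of gene pairs within each library, red circles for articular and blue squares for xiphoid cartilage. The height of a point depends on transcript length, so only the gap between tissues within a pair is to be read. The articular points lie above the xiphoid points in each of the 6 pairs, a direction set by placing the gene or sum with the larger fold on top.

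Sp7 (Entrez gene 300260), the gene of osterix, was at 57.5 and 55.1 CPM in articular cartilage, from 481 and 429 counts, and 1.29 and 1.23 CPM in xiphoid cartilage, from 11 and 9 counts. The replicates of each tissue lay close together. The mean was 56.3 ± 1.73 CPM in articular cartilage and 1.26 ± 0.0428 CPM in xiphoid cartilage, 44.0-fold more in articular cartilage (log2 fold change 5.46, SE 0.25, 95% interval 4.91 to 6.01, adjusted p = 6.81e-09). Leaving out any 1 library gave log2 fold changes of 5.43 to 5.51. In mice Sp7 is placed downstream of Runx2, and the ratio of Sp7 to Runx2 was 0.545 and 0.337 in articular and 0.0866 and 0.0638 in xiphoid cartilage, so the genes did not change by the same factor. Osteoblast and osteocyte markers other than the type I collagen chains were also higher in the articular than in the xiphoid libraries. SP7 is known from both osteoblasts and hypertrophic chondrocytes.

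Mef2a (Entrez gene 309957) was at 164 and 202 CPM in articular cartilage and 42.7 and 54.8 CPM in xiphoid cartilage, with the lowest articular value well above the highest xiphoid value. Its mean was 183 ± 26.9 CPM in articular cartilage and 48.7 ± 8.57 CPM in xiphoid cartilage, 3.75-fold more in articular cartilage (log2 fold change 1.91, SE 0.18, 95% interval 1.52 to 2.30, adjusted p = 3.13e-06). Mef2d (Entrez gene 81518) was at 112 and 97.9 CPM in articular cartilage and 74.4 and 76.4 CPM in xiphoid cartilage. The libraries of Mef2d did not overlap, but the step between tissues was the smallest of the 7 genes at 1.39-fold (105 ± 9.80 CPM in articular, 75.4 ± 1.42 CPM in xiphoid cartilage, log2 fold change 0.47, SE 0.15, 95% interval 0.14 to 0.80, adjusted p = 0.0207). That call was lost without articular replicate 1 (adjusted p = 0.0627), without xiphoid replicate 1 (0.151) and without xiphoid replicate 2 (0.115). The ratio of Mef2a to Mef2d was 1.47 and 2.06 in articular and 0.573 and 0.717 in xiphoid cartilage. Skeletal muscle, a classical site of MEF2 activity, had lower marker sums in the articular libraries. There Tnnt3 at 30.7 and 21.3 CPM made up most of the sum, against 828 and 786 CPM of Tnnt3 in the xiphoid libraries. The part of muscle in the levels of Mef2a and Mef2d was not tested. Mef2c was not analysed here.

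The promoters of Runx2 and Runx3 are shown because these genes were high together in articular cartilage and because RUNX proteins can act on RUNX promoters. RefSeq windows (GRCr8) of 250 bases before to 50 after a start were held for 6 of the 7 genes. They were searched on both strands for the RUNX motif TGTGGT (reverse ACCACA), the GC box GGGCGG of SP factors (reverse CCGCCC) and the MEF2 motif CTANNNNTAG, and no matches of different motifs overlapped. The RUNX motif was in the upstream window of Runx2 and that of Runx3 and in none of the other 6 of these 8 windows, against 17.3% of all 33469 windows. The bases before the start of Runx3 (chr5:152644020-152644269, plus strand) and Runx2 (chr9:23664808-23665057, plus strand) are given with RUNX motifs in capitals.
Runx3 distal promoter: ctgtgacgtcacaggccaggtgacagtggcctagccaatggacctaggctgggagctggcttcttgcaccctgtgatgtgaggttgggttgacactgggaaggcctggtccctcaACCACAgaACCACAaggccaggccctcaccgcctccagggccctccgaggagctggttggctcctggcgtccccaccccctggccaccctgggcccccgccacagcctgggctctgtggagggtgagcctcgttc
Runx2 distal promoter: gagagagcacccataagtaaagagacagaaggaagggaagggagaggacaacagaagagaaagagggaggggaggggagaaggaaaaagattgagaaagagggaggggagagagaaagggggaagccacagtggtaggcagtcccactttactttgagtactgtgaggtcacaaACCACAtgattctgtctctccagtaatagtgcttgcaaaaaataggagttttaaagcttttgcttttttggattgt
Runx3 holds a pair of motifs that begin 135 and 127 bases before its start. Runx2 holds a pair with the same spacing, beginning at bases 28 and 36 when the count includes the start base itself. It is shown here in 27 bases beside the Runx3 pair (chr9:23665078-23665104 and chr5:152644128-152644154).
Runx2 after the start: acaaacaACCACAgaACCACAagtgcg
Runx3 pair: tccctcaACCACAgaACCACAaggcca
The run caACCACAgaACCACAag, 18 bases long, is identical in the windows of these genes. A pair of RUNX motifs with starts 8 bases apart was in 7 of the 33469 windows, or 0.0209%, a spacing that was counted after these windows had been read. These matches describe the letters of the windows and do not show binding.

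The GC box was in 5 of the 8 windows, 1 each of Runx2, Runx3, Cbfb, Mef2a and Mef2d, against 33.1% of all windows. Cbfb had 4 copies and Mef2d 3. The MEF2 motif was in 3.84% of all windows and, among these 8 windows, in that of Mef2a, where it begins 40 bases before the start. The bases before that start (chr1:130392163-130392412, minus strand) are given with the MEF2 motif in capitals, since Mef2a was the MEF2 gene with the larger change.
Mef2a promoter: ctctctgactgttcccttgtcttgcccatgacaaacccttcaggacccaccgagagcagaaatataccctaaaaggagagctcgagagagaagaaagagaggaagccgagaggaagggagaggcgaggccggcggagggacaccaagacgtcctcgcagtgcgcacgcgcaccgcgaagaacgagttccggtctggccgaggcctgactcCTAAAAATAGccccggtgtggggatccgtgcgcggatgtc

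Genes known as targets of RUNX2 or SP7 in mouse or rat bone and cartilage cells were largely higher in articular cartilage. Of 19 listed, 17 were in the table and tested, 14 (82.4%) were higher in articular cartilage, Ucma (5.88%) was lower, and Col1a1 and Col1a2 did not pass. Over all genes tested 25% were higher and 24.5% lower. The list's median log2 fold change was 6.35, or 6.09 with Phex and Sost at their lower bounds, against -0.02 over all genes tested. Dmp1, Panx3, Mepe, Phex and Sost had at most 8 counts in a xiphoid library and reached the filter through the articular libraries alone. Mmp13 and Ihh, with 6 and 7 counts in xiphoid replicate 2, also needed the articular libraries. For such genes a call as lower was hardly possible, so the share beside that of all genes is a description. Mmp13, the collagenase of hypertrophic cartilage, was at 669 and 804 CPM in articular cartilage and 2.00 and 0.822 CPM in xiphoid cartilage (503-fold, adjusted p = 3.75e-10), or 883-fold without xiphoid replicate 1. Dmp1, a matrix protein of osteocytes, was at 249 and 187 CPM in articular cartilage and 0.941 and 0.548 CPM in xiphoid cartilage (adjusted p = 7.81e-10). Bglap, which encodes osteocalcin, was at 507 and 414 CPM in articular cartilage and 5.29 and 6.03 CPM in xiphoid cartilage (adjusted p = 3.75e-10). In xiphoid cartilage none of these 3 genes exceeded 6.03 CPM in a library.

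Alpl, the phosphatase of mineralizing matrix, was at 931 and 907 CPM in articular cartilage and 7.17 and 7.95 CPM in xiphoid cartilage (adjusted p = 1.31e-10). Ihh, which encodes the hedgehog signal of the growth plate, was at 248 and 209 CPM against 1.76 and 0.959 CPM in xiphoid cartilage (adjusted p = 7.16e-10). Phospho1, a phosphatase of matrix vesicles, was at 470 and 525 CPM in articular cartilage and 31.6 and 34.2 CPM in xiphoid cartilage (adjusted p = 3e-09). With no xiphoid count, Phex was at least 70.8-fold and Sost at least 17.0-fold higher in articular cartilage, computed against a floor of 3 counts over both xiphoid libraries. Floors and counting intervals cover counting error only. Ucma, a secreted cartilage protein reported as a RUNX2 and SP7 target in mouse bone cells, ran opposite to the list at 695 and 666 CPM in articular cartilage and 4500 and 4271 CPM in xiphoid cartilage (log2 fold change -2.69, adjusted p = 5.63e-08). Col1a1, a chain of type I collagen, was at 5516 and 5979 CPM in articular cartilage and 5961 and 6495 CPM in xiphoid cartilage (log2 fold change -0.12, 95% interval -0.45 to 0.22). All 7 tested osteoblast and osteocyte markers given above are themselves on the target list, so neither count is evidence for the other. Of the other 10 targets 9 were higher in articular cartilage and Ucma was lower.

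Of the 17 targets, 12 had a promoter window, and the RUNX motif was in that of 4, Bglap, Mepe, Mmp13 and Ucma, against 17.3% of all windows. Ucma thus holds the motif with a change opposite to the other 3. The windows of Mmp13 (chr8:12782579-12782828, plus strand) and Bglap (chr2:176137319-176137568, minus strand) are shown as those of classical RUNX2 targets, with the RUNX motif in capitals at 149 and 118 bases before the start.
Mmp13 promoter: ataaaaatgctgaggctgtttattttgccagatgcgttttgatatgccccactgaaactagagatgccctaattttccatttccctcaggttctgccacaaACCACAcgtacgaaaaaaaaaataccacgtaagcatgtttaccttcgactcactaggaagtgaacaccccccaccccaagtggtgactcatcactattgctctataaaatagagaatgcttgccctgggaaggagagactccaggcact
Bglap promoter: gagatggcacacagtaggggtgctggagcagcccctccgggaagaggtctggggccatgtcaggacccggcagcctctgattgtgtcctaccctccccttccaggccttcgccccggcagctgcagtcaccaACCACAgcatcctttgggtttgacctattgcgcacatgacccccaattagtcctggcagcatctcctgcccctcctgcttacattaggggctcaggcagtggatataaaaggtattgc

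Partners and regulators of RUNX proteins were called at shares near those of all genes tested. Of 25 listed, 22 were tested, 7 (31.8%) were higher in articular cartilage, 5 (22.7%) were lower and 10 did not pass, with a median log2 fold change of 0.36. Atf4, a partner of RUNX2 in osteoblasts, was at 1265 and 1252 CPM in articular cartilage and 257 and 277 CPM in xiphoid cartilage (4.71-fold, adjusted p = 1.76e-07). Dlx3, a homeobox gene of bone, had 120 counts in articular cartilage and 1 in xiphoid cartilage, a scaled ratio of 117 (adjusted p = 1.31e-05), for which the exact conditional binomial interval at 95% ran from 20.7 to 4678. A lone xiphoid count of Dlx3 is too few for a firm size of the change.

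In the opposite direction, Msx1, a homeobox gene of undifferentiated skeletal precursors, was at 1.91 and 2.18 CPM in articular cartilage and 25.3 and 28.8 CPM in xiphoid cartilage (log2 fold change -3.71, adjusted p = 3.39e-07). Zfp521, a zinc finger protein that binds RUNX2 and represses it in mice, was at 12.8 and 17.1 CPM in articular cartilage and 39.0 and 48.1 CPM in xiphoid cartilage (log2 fold change -1.54, adjusted p = 7.08e-05). Yap1, a coactivator that can restrain RUNX2, was at 149 and 149 CPM in articular cartilage and 227 and 249 CPM in xiphoid cartilage (log2 fold change -0.67, adjusted p = 0.00192). Further called genes of the list went both ways. Tle4 (log2 fold change 0.65), Smurf1 (0.63), Wwtr1 (0.66) and Zbtb16 (2.17) were higher in articular cartilage, and Tle1 (-0.82) and Dlx5 (-0.62) were lower. A link between role and direction was not tested. The xiphoid libraries also held more of 4 of the 5 tested fibroblast and perichondrium markers, while Pdgfra did not pass. The sums given above were mostly Gsn, at 352 and 338 CPM in articular and 13879 and 12739 CPM in xiphoid cartilage.

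**Figure D4:**
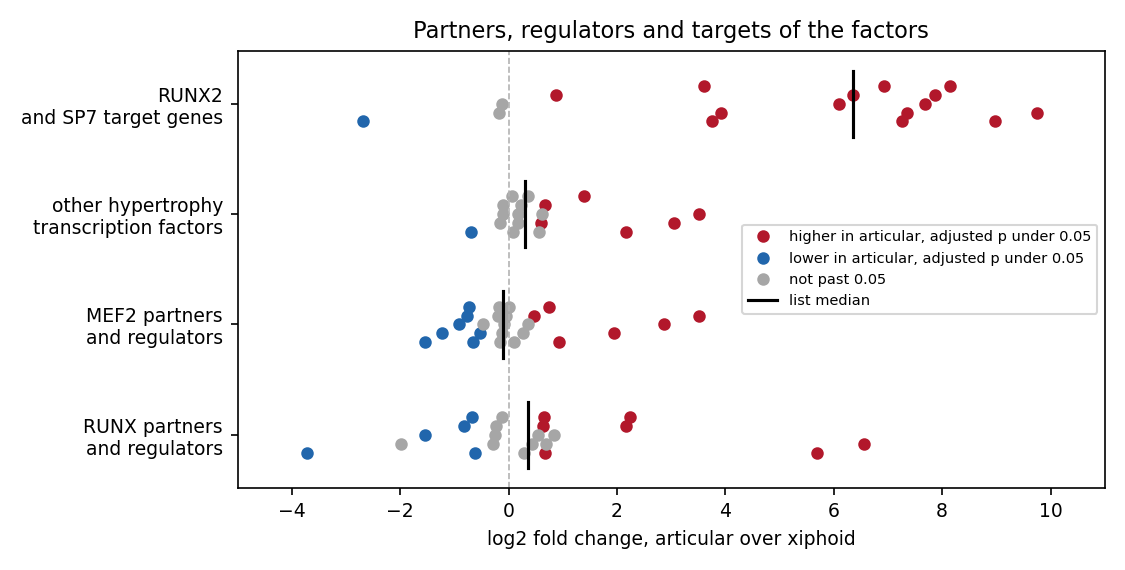
Log2 fold change of articular over xiphoid cartilage for every tested gene of 4 lists, 1 point a gene, with red and blue for genes past an adjusted p of 0.05 and a black line at each list's median. Most targets of RUNX2 and SP7 lie above 3 (median 6.35), where Phex and Sost are drawn at fitted values that are no bound, while the medians of the other lists lie between -0.10 and 0.36.

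Partners and regulators of MEF2 proteins were likewise near the shares of all genes tested. Of 28 listed, 24 were tested, 6 (25%) were higher in articular cartilage, 7 (29.2%) were lower and 11 did not pass, with a median of -0.10. Without xiphoid replicate 2 only 3 were called lower, and the higher count was 4 without either xiphoid library. Hdac9, a class IIa deacetylase, was at 12.1 and 14.0 CPM in articular cartilage and 1.65 and 0.548 CPM in xiphoid cartilage (11.4-fold, adjusted p = 2.06e-05), or 23.3-fold without xiphoid replicate 1. Hdac4, named after its values were seen because it restrains hypertrophy in mice, was at 17.8 and 15.2 CPM in articular cartilage and 9.88 and 9.73 CPM in xiphoid cartilage (1.68-fold, adjusted p = 0.0162). Its call was lost without articular replicate 1 (adjusted p = 0.0616), without xiphoid replicate 1 (0.0667) and without xiphoid replicate 2 (0.068). Both of these repressors of MEF2 were higher in the tissue where Mef2a was higher, while Hdac5, another of the class, did not pass (log2 fold change 0.26, adjusted p = 0.19).

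Ppp3ca, a catalytic subunit of calcineurin, which activates MEF2, was at 118 and 162 CPM in articular cartilage and 31.6 and 41.2 CPM in xiphoid cartilage (3.85-fold, adjusted p = 6.51e-06). Prkd3, a kinase of the protein kinase D family that phosphorylates class IIa deacetylases, was at 62.3 and 74.1 CPM in articular cartilage and 31.4 and 40.1 CPM in xiphoid cartilage (adjusted p = 0.000967). Mef2b, a further MEF2 gene, was at 3.23 and 3.47 CPM in articular cartilage and 0.353 and 0.548 CPM in xiphoid cartilage (adjusted p = 0.00143), from 27 and 27 counts in the articular and 3 and 4 counts in the xiphoid libraries. Sik1, a salt-inducible kinase that also acts on these deacetylases, was at 8.37 and 15.0 CPM in articular cartilage and 26.7 and 28.2 CPM in xiphoid cartilage (log2 fold change -1.23, adjusted p = 0.00173). Akap13, an anchoring protein for protein kinases A and D, was at 31.9 and 30.7 CPM in articular cartilage and 61.1 and 56.2 CPM in xiphoid cartilage (log2 fold change -0.91, adjusted p = 0.000567).

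Among other transcription factors of hypertrophy 18 of 20 listed were tested. Of these 6 (33.3%) were higher in articular cartilage, Lef1 (5.56%) was lower and 11 did not pass, with a median of 0.30. Over all genes tested 25% were higher and 24.5% lower. Trps1, a GATA-type repressor that interacts with RUNX2 in mouse growth plates, was at 130 and 172 CPM in articular cartilage and 18.1 and 18.5 CPM in xiphoid cartilage (8.25-fold, adjusted p = 8.07e-08), a fold close to that of Runx2. Foxa2, a forkhead factor that turns on hypertrophic genes in mice, was at 30.9 and 21.4 CPM in articular cartilage and 6.47 and 5.07 CPM in xiphoid cartilage (adjusted p = 2.77e-05). Its relative Foxa3 was at 49.4 and 33.5 CPM against 25.4 and 26.7 CPM (adjusted p = 0.0168), a call lost without articular replicate 1 (adjusted p = 0.137) and without xiphoid replicate 1 (0.0605).

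Gli1, a target and effector of hedgehog signalling, was at 21.9 and 15.9 CPM in articular cartilage and 2.23 and 0.959 CPM in xiphoid cartilage (11.5-fold, adjusted p = 7.85e-06), or 19.6-fold without xiphoid replicate 1. Zbtb20, a zinc finger repressor of Sox9 in hypertrophic chondrocytes of mice, was at 162 and 178 CPM in articular cartilage and 65.7 and 63.0 CPM in xiphoid cartilage (adjusted p = 9.83e-06). Lef1, a nuclear effector of Wnt signalling, was at 32.2 and 37.1 CPM in articular cartilage and 52.3 and 59.9 CPM in xiphoid cartilage (adjusted p = 0.00449), and did not pass without xiphoid replicate 2 (adjusted p = 0.0678).

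The genes whose pattern was most like that of a factor were taken by the smallest distance between log2(CPM + 1) values centred over the 4 libraries, among 7943 genes of at least 10 CPM. With 4 libraries in 2 tissues this measure mainly reads the size of the gap between tissues, and it is a description. Nearest to Runx2 were Stag2, Ddx3 and Ddah1 at distances of 0.197, 0.214 and 0.254, each higher in articular cartilage and highest in articular replicate 2. Nearest to Runx1 were Ndufa1 (0.0340), Ank1 (0.0674) and Klc3 (0.0749), none of which passed the test with all 4 libraries. Leaving out articular replicate 1 brought each past the threshold as lower in articular cartilage, as it did Runx1. Leaving out xiphoid replicate 2 did so for Ndufa1 and Klc3. These genes were chosen for values like those of Runx1, so a like response is no separate evidence. Nearest to Runx3 were Mt3 (0.519), RT1-CE6 (0.541), whose reads may be shared with near-identical histocompatibility genes, and Acp5 (0.629), an osteoclast marker at 760 and 787 CPM in articular cartilage and 16.9 and 17.1 CPM in xiphoid cartilage. Nearest to Sp7 were Atp6v0d2 (0.178), another osteoclast marker, with 356 counts in articular and 0 in xiphoid cartilage, then Bmp3 (0.269) and Adm2 (0.337). The added 1 CPM hides differences below about 1 CPM, so the absence of Atp6v0d2 counts and the 20 Sp7 counts of xiphoid cartilage look alike on this scale.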

How the data were processed

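The deposited table holds an expected count, an estimated read number, for each gene and library, which the authors left unnormalized, per the file headers. Of the values 3.91% were not whole. The submitters' processing notes name RSEM 1.2.12, Bowtie2 2.2.6, StringTie 1.2.1, HISAT2 2.0.4 and build rn6, without saying which made what. These expected counts were rounded to whole numbers here, filtered with filterByExpr by tissue and scaled by TMM. Tissue was the only term of a robust quasi-likelihood fit in edgeR 4.0.16 (R 4.3.3) with 2 residual degrees of freedom, and 2-sided p-values were adjusted by Benjamini-Hochberg across the 11202 genes tested, with 0.05 as the threshold. A standard error is the size of the log2 fold change divided by the square root of F, and intervals are at 95%. The procedure was tested on simulated data.

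The 7 genes, the 4 lists of partners, regulators, targets and other factors, and the 13 marker lists were chosen with earlier results of these data known. They are described by counts and medians, with no set test. Of each of the 4 lists the text names the 6 genes with the lowest adjusted p, of which 1 is not reported here. The targets Ucma, Col1a1, Col1a2, Phex, Sost, Panx3 and Mepe, and Hdac4 and Hdac5, were named after their values were seen. So were Tle1, Tle4, Smurf1, Wwtr1, Zbtb16 and Dlx5. List symbols were matched by table symbol or, for Tle5, by RefSeq gene identifier. Promoter windows came from RefSeq on GRCr8, which is not the build of the counts, and were used for sequence only. The alternatives changed the scaling (RLE factors, upper-quartile factors, or none beyond library size), the filter (off, or at least 5 CPM on average), the test (limma-voom with limma 3.58.1, or DESeq2 1.42.0), the design (a replicate block) or the rows (ribosomal RNA dropped, or the markers of other cells dropped), or left out 1 library at a time.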

Additional observations from a re-analysis of the deposited data

How the results depend on the processing

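Runx2, Runx3, Sp7, Cbfb and Mef2a kept their direction and their call under all 14 alternatives, with log2 fold changes of 2.63 to 3.26 for Runx2, 5.52 to 7.14 for Runx3, 5.41 to 5.51 for Sp7, 0.74 to 1.01 for Cbfb and 1.75 to 2.11 for Mef2a. Mef2d kept its direction under all 14 and its call under 11, at 0.38 to 0.57 when 1 library was left out. Runx1 was lower in articular cartilage in all 14 fits and passed in 2, so the count of the 7 genes called lower in articular cartilage, 0 in the reported edgeR test (also 0 at an unadjusted p under 0.05), with DESeq2 and with limma-voom, was 1 in those fits. It was at -0.87 to -0.20 when 1 library was left out and -0.50 with the replicate block (adjusted p = 0.0129). The labels number the libraries 1 and 2 in each tissue but do not say that the numbers pair them, and the differences between libraries 1 and 2 had a correlation of 0.304 between tissues across genes. The block called 3344 genes higher and 3484 lower, against 2799 and 2745. Over the other settings 2235 to 2991 genes were called higher and 2070 to 3041 lower, the lowest counts coming with a xiphoid library left out. When a library is left out, the lone library of its tissue is assumed to vary like the others. The log2 ratio of Sp7 to Runx2, articular minus xiphoid, was 2.09 with 0.5 CPM added and 2.53 without, because the added value is large beside the xiphoid Sp7 level. A test of FPKM or TPM was not run, since the table holds counts. With the replicate block Col1a2 (-0.18, adjusted p = 0.0401) and Hdac5 (0.26, 0.0499) also passed, which made 2 targets lower in place of 1. Hdac4 did not pass with DESeq2 (adjusted p = 0.0528), which called 4 regulators of MEF2 higher in place of 6. No fold of the 7 factors or of the other 43 genes recomputed turned round. Depth limits the genes with few xiphoid counts, among them Runx3, Sp7, Dlx3, Mef2b, Dmp1, Hdac9 and Ihh with 22 or fewer over both libraries, and Phex, Sost and Nkg7 with 0.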
